A study of Mus musculus with 43 samples.

Results

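The newborn ovary of mice that are homozygous for KitWv was compared with the wild-type ovary at birth (P0), to see which transcripts were missing from an ovary short of oocytes and which somatic transcripts remained or were higher. The comparison held 3 Kit mutant ovaries and 3 wild-type ovaries, that is 6 of the 43 Affymetrix MOE430 v.2 arrays of the series, chosen by their sample titles. Each array was hybridised with amplified RNA from the whole gonads of 1 mouse, freed of the adjoining tissue. The Kit mutant mice were KitWv/Wv and also carried a single intact Foxl2 copy (Foxl2+/-), whereas no allele is named for the wild-type ovaries, so that the loss of Kit function and the reduced Foxl2 dose cannot be told apart in this contrast alone. KitWv is a hypomorphic allele that alters the receptor and leaves its transcript in place. Further arrays served as points of reference, with 3 in each group: KitWv/Wv Foxl2-/- ovaries and Foxl2-/- ovaries at P0, Wnt4-/- ovaries at P0 (which were Foxl2+/- too), testes at P0 (taken from Wnt4-null mice, whose testes are partly defective), and Foxl2+/- and wild-type ovaries at embryonic day 16 (E16). The genetic background was mixed, with contributions of CD1, C57BL/6J and NIH-Swiss/BC mice. The paper names the wild-type ovaries as littermates of Foxl2-null mice and does not state that they shared litters with the Kit mutants. A difference of litter or cross can therefore not be told apart from the loss of Kit function. This holds for the KitWv/Wv Foxl2-/- and Foxl2-/- ovaries too.

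Kit is a receptor tyrosine kinase of germ cells, mast cells and melanocytes, and its ligand Kitl is made by the somatic cells around them. Primordial germ cells need this pair to survive and to reach the gonad, so that ovaries of mice with strongly reduced Kit function hold few oocytes. In the normal mouse ovary around birth, oocytes that have entered meiotic prophase break out of their nests and are enclosed by pregranulosa cells as primordial follicles.

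Signals are given as multiples of the mean signal that all arrays were scaled to. A gene was read from its brightest probe set, and 18184 genes were compared by limma with Benjamini-Hochberg adjustment (adjusted p under 0.05, all 43 arrays in 1 fit). As deposited, 3147 genes (17.3%) were higher and 2420 (13.3%) were lower in the Kit mutant ovaries. The scaling left the arrays with unequal medians, which were 0.250 to 0.265 in Kit mutant ovaries and 0.197 to 0.224 in wild-type ovaries, and the median change over all 45007 probe sets was 0.28 on the log2 scale. The shift was not even across signal levels: the median change was 0.41 and 0.43 in the 2 dimmer of 4 equal groups of probe sets, 0.25 in the third and 0.02 in the brightest. When every array was centred on its median, 1129 genes were higher and 3359 were lower, so that the share of higher genes among those called was 25.2% after centring and 56.5% as deposited. Centring moved all probe sets of an array alike, whatever their signal. The brightest group had shifted by only 0.02, so centring is strict on rises of bright genes. A gene described below as higher only as deposited lost its call after centring. Below, "rose" and "fell" are kept for genes that passed the test both as deposited and after centring. This held for 1129 genes that rose (6.21%) and 2420 that fell (13.3%). Log2 changes are those of the deposited scaling, to be read against the median over genes of 0.23.

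**Figure D1:**
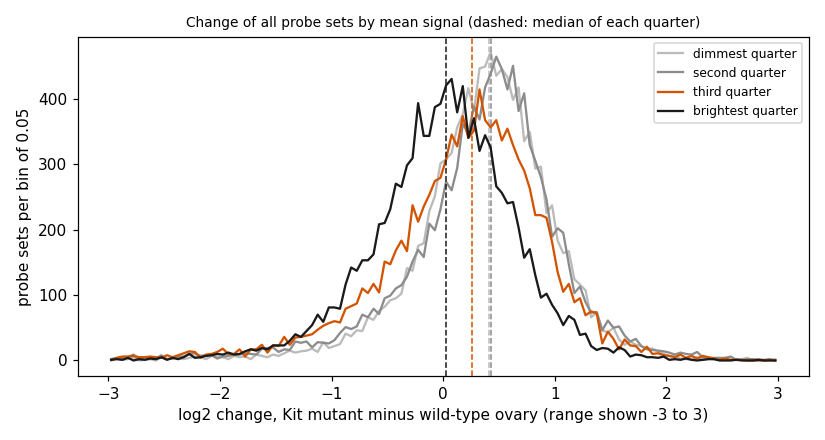
Number of probe sets (vertical axis) by log2 change between Kit mutant and wild-type ovaries at P0 (horizontal axis), in 4 equal groups by mean signal over all arrays, with the median of each group as a dashed line. The medians were 0.41, 0.43 and 0.25 in the 3 dimmer groups and 0.02 in the brightest.

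Kit mutant replicate 1 stood apart from the other arrays of its group. Its log2 values correlated with those of replicates 2 and 3 at 0.947 and 0.946, against 0.977 between replicates 2 and 3 and 0.958 to 0.972 among wild-type arrays, and its residual SD was 0.57, against 0.41 in both of the other Kit mutant arrays and 0.39 to 0.48 in wild-type arrays. For the genes whose own change is printed, a change that moved by over 1.5-fold without it is given without it as well. The labelled tissue was borne out by its markers in all 6 arrays: the ovarian supporting cell genes Foxl2, Fst and Irx3 had signals of at least 2.77 in Kit mutant ovaries and at least 0.895 in wild-type ovaries.

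Kit itself, the targeted receptor, had signals of 0.532, 0.689 and 0.858 in Kit mutant ovaries, against 2.64, 3.63 and 2.50 in wild-type ovaries. No mutant array reached a wild-type one, and the change was -2.07 ± 0.42 (SE, adjusted p = 0.00039), with a second probe set at -2.80. Because the mutation leaves the transcript in place, the fall does not check the genotype directly. In whole gonads, fewer cells that carry a transcript and less transcript per cell cannot be told apart, and this holds for every gene below. Kitl, the ligand, rose: its signals were 6.12, 9.27 and 8.39 in Kit mutant ovaries and 4.35, 3.17 and 4.59 in wild-type ovaries, a change of 0.97 ± 0.25 (adjusted p = 0.00402, and 0.038 after centring). The 3 other Kitl probe sets were higher by 1.0, 1.20 and 1.27. Of 19 measured genes on the list of the Kit signalling pathway, Kitl rose and Kit fell; Src, Spry4 and Akt1 were higher only as deposited, with adjusted p of 0.27, 0.19 and 0.54 after centring.

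**Figure D2:**
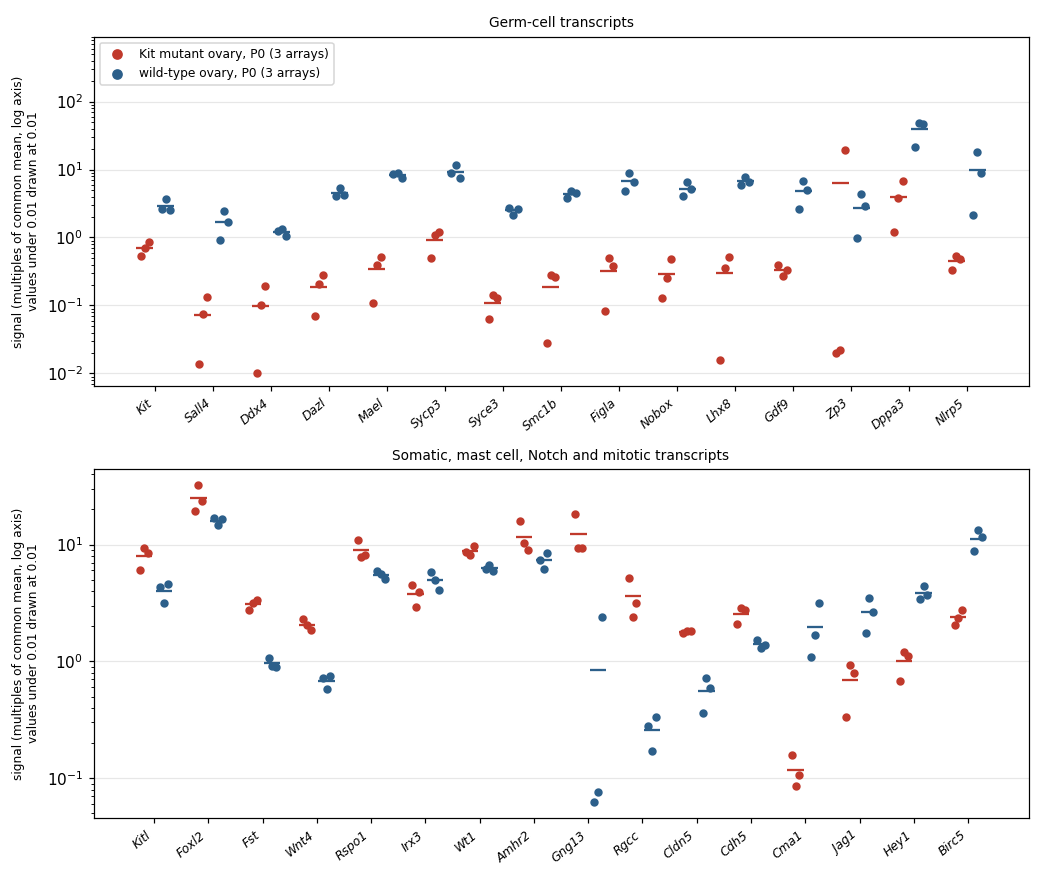
Signal of each array (points, log axis, multiples of the common mean) and group mean (bars) for selected genes in 3 Kit mutant and 3 wild-type ovaries at P0; signals under 0.01 are drawn at 0.01. The germ-cell genes were lower in all Kit mutant arrays except for Zp3 in 1 array, whereas Kitl, Fst, Wnt4 and Cldn5 were higher in all of them.

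Most genes of the germ-cell lists fell. Across 7 lists of germ-cell genes, 107 of 121 listed genes were measured, 78 fell, 1 rose (Rec8) and 28 were not called under both scalings; among all genes 13.3% fell and 6.21% rose. The median change of the 107 was -2.58, and 80 of them had arrays that did not overlap between the groups, as 43.5% of all genes did. Summed over these genes, the signal was 28.5 to 66.5 in Kit mutant ovaries and 189 to 312 in wild-type ovaries. That was 0.06% to 0.15% of all signal on the arrays in Kit mutant ovaries, against 0.43% to 0.70% in wild-type ovaries. Oocyte lists that the study drew from other public arrays, of 100 probe sets each, moved less as deposited. In the list of newborn against growing oocytes 43 were lower and 9 higher (median -0.17). In the list of growing against newborn oocytes 12 were lower and 10 higher (median 0.32). Over all 45007 probe sets 4441 were lower and 7300 higher (median 0.28).

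The transcripts did not vanish to the same extent in each mutant ovary. Over the 78 genes that fell, the median signal left was 4.63% of the wild-type mean in Kit mutant replicate 1, 8.0% in replicate 2 and 13.1% in replicate 3. Replicate 1 was the lowest of the 3 for 55 of the 78 genes. By gene, 20 of the 78 averaged under 5% of the wild-type mean and 39 under 10%. Without replicate 1, the falls of 22 of these genes shrank by more than 1.5-fold and 6 lost their call (Spo11, Mei4, Foxo3, Zp3, Ooep and Mos). The median change of the 78 was -2.91 without replicate 1 and -3.37 with all arrays, and it was -3.65 without replicate 3, when 11 falls grew by more than 1.5-fold.

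**Figure D3:**
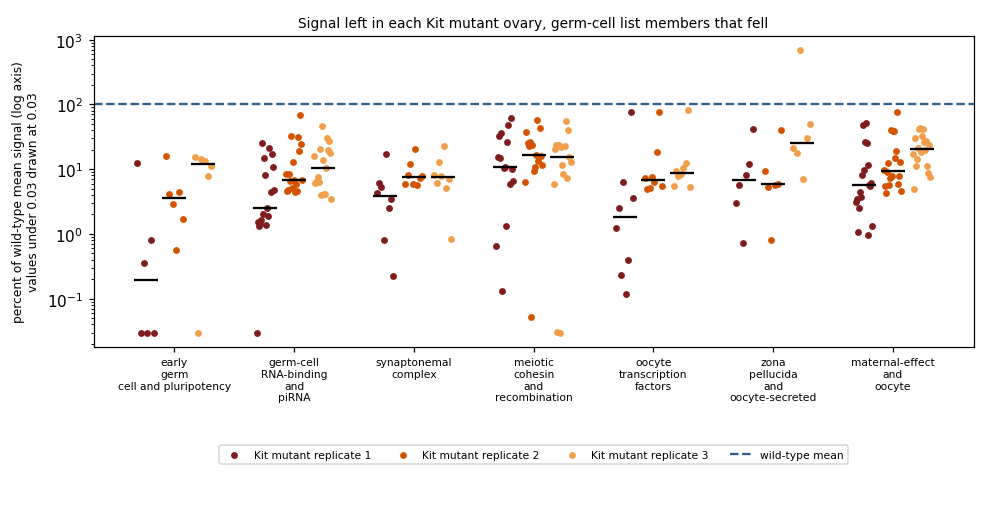
Signal of each germ-cell gene that fell, as a percent of its wild-type mean (log axis), in each of the 3 Kit mutant ovaries, by gene list; bars are medians, the dashed line is the wild-type mean, and values under 0.03% are drawn at 0.03%. Over all lists the medians were 4.63%, 8.0% and 13.1% in replicates 1, 2 and 3, and the point far above the wild-type mean is Zp3 in replicate 3.

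Sequences upstream of the germ-cell genes are shown because the genes of these lists moved together and because several of the missing transcripts encode factors of known binding preference: the bHLH proteins Figla, Sohlh1 and Sohlh2 bind E-boxes (CANNTG), and homeodomain proteins such as Lhx8 and Nobox bind sites with a TAATT core. RefSeq promoters (GRCm38.p6, from 250 bases before the start of transcription to 50 after it, the first entry of each gene) were matched to 86 of the 107 measured genes and to 63 of those that fell. Of these 63, 50 held CANNTG (79.4%, against 67.0% of 14444 promoters of measured genes), 17 held the palindromic E-box CACGTG (27.0% against 9.01%), 1 held TAATTA (1.59% against 3.29%), 4 held TAATTG (6.35% against 5.65%) and 11 held GCGGGAA (17.5% against 6.96%), the core of an E2F-type site. All motifs were read on both strands, and each CACGTG is also a CANNTG. The genes with CACGTG were Ddx4, Mael, Tdrd1, Tdrd9, Mov10l1, Ddx25, Rbm46, Sycp1, Sycp3, Tex12, Hormad1, Stag3, Rec114, Sohlh1, Zp3, Tle6 and Cpeb1, and Ddx4, Sycp3, Tex12, Hormad1, Stag3 and Rec114 held GCGGGAA as well. A match describes these letters only. For each list the gene that fell with the smallest adjusted p among those with a promoter is printed 5′ to 3′, with the motifs in capitals; the one of Lin28a holds none of them.
Lin28a: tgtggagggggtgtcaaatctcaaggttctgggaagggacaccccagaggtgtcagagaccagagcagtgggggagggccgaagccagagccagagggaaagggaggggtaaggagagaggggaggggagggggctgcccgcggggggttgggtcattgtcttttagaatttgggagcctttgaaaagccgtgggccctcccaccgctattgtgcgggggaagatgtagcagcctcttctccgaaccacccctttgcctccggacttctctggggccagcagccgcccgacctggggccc
Dazl: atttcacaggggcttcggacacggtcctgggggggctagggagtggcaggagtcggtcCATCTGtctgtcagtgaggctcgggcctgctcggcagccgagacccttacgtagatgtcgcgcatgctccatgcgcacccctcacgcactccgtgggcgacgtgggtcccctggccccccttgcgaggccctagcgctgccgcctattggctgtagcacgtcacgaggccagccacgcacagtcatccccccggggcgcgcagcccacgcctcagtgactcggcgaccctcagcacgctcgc
Syce3: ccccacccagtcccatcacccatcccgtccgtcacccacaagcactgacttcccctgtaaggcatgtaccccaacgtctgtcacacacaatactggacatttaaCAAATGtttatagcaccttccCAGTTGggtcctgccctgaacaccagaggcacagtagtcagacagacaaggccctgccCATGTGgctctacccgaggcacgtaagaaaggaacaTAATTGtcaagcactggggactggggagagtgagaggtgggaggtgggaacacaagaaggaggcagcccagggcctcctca
Mnd1: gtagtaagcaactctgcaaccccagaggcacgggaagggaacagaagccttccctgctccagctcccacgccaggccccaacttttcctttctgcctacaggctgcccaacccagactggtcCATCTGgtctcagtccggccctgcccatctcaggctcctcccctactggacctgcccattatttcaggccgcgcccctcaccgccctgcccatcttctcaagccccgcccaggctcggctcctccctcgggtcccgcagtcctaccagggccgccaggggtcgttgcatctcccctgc
Sohlh2: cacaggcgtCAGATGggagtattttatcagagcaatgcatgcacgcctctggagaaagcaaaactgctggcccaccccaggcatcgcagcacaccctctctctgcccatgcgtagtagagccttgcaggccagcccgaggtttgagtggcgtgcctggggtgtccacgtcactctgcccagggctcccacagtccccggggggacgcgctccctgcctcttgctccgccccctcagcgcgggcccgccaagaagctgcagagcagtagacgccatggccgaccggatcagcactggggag
Bmp15: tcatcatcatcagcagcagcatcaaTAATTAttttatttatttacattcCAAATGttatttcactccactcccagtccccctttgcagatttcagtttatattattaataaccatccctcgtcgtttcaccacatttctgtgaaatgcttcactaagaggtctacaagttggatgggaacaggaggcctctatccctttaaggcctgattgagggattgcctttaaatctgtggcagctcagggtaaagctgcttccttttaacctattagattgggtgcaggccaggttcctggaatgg
Cpeb1: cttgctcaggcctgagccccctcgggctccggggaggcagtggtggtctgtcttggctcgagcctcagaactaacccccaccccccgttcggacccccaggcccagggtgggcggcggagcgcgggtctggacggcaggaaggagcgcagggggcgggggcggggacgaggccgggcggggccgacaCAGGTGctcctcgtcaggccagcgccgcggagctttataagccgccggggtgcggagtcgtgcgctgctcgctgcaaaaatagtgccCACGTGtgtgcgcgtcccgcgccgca

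These promoters lie at chr4:134018767-134019066 (Lin28a, minus strand), chr17:50293571-50293870 (Dazl, minus strand), chr15:89410454-89410753 (Syce3, minus strand), chr3:84155737-84156036 (Mnd1, minus strand), chr3:55181794-55182093 (Sohlh2, plus strand), chrX:6320675-6320974 (Bmp15, minus strand) and chr7:81454709-81455008 (Cpeb1, minus strand). The run in Cpeb1 is the only one of the 7 with CACGTG, Syce3 is the only one with TAATTG and Bmp15 the only one with TAATTA.

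Among genes of early germ cells and pluripotency, 6 of 14 measured fell (median -0.73): Pou5f1, Zfp42, Tfap2c, Lin28a, Sall4 and Dppa4. Sall4, a zinc-finger factor of germline stem and progenitor cells, had 0.0138, 0.074 and 0.132 in Kit mutant ovaries, against 0.908, 2.43 and 1.71 in wild-type ovaries (change -4.58 ± 0.60, adjusted p = 5.17e-07). Lin28a, an RNA-binding protein that blocks let-7 maturation, was at 2.34e-05, 0.00554 and 0.133 in Kit mutant ovaries and at 0.814, 1.43 and 0.739 in wild-type ovaries (change -5.09). Both groups were apart for either gene, and in both the highest mutant value was that of replicate 3. Lin28a changed by -4.35 without Kit mutant replicate 1 and by -6.27 without replicate 3, and Sall4 by -3.84 without replicate 1. The other 8 genes, among them Nanog, Sox2, Prdm1 and Prdm14, had signals of at most 0.242 on every one of the 6 arrays and were not called.

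Of the RNA-binding and piRNA genes, 17 of 20 fell (median -3.69). Ddx4 (vasa), a helicase found in germ cells of both sexes, had 7.51e-06, 0.102 and 0.195 in Kit mutant ovaries, against 1.25, 1.35 and 1.06 in wild-type ovaries, and changed by -4.32 ± 0.59 (adjusted p = 9.65e-07; -3.01 without Kit mutant replicate 1 and -5.19 without replicate 3). Dazl, a translational regulator of germ cells, had 0.0688, 0.209 and 0.277 in Kit mutant ovaries and 4.06, 5.38 and 4.16 in wild-type ovaries (change -4.72 ± 0.39, adjusted p = 5.64e-11). Each of these mutant values lay more than 5-fold below the lowest wild-type value, and the order of the mutant arrays was the same for both genes. Piwil2, Mael, Tdrd1, Tdrd9, Mov10l1, Asz1, Gtsf1 and Exd1, which act in the piRNA pathway that silences transposons, changed by -4.06 to -4.82. Without Kit mutant replicate 1 the changes of Piwil2, Mael, Tdrd1 and Gtsf1 were -3.63, -4.16, -3.88 and -3.75, and Gtsf1 was at -4.95 without replicate 3. Tdrd7 and Henmt1 were not called (-0.44 and -0.47), and Piwil4 (-1.12) passed only after centring.

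Meiotic prophase genes fell as a group. In the synaptonemal complex list 8 of 9 fell (median -3.85): Sycp1, of the transverse filaments, Sycp2 and Sycp3, of the lateral elements, the central element genes Syce1, Syce2, Syce3 and Tex12, and Hormad1, which marks unsynapsed axes. Syce3 had 0.0624, 0.141 and 0.128 in Kit mutant ovaries and 2.71, 2.16 and 2.67 in wild-type ovaries (change -4.45 ± 0.39, adjusted p = 2.12e-10). Sycp3 had 0.495, 1.10 and 1.19 in Kit mutant ovaries and 8.95, 11.5 and 7.39 in wild-type ovaries (change -3.38 ± 0.39). The groups did not overlap for any gene of this list. Syce2 fell least among the called ones (-2.33) and still had signals of 2.19 to 2.94 in Kit mutant ovaries. Hormad2, at most 0.0987 on every array, passed only after centring.

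In the cohesin and recombination list 15 of 21 fell and 1 rose (median -1.60). Smc1b, a meiosis-specific cohesin subunit, had 0.0281, 0.280 and 0.262 in Kit mutant ovaries, against 3.86, 4.80 and 4.45 in wild-type ovaries (change -4.92 ± 0.64, adjusted p = 4.09e-07; -3.96 without Kit mutant replicate 1). Mnd1, which acts with Psmc3ip in strand exchange, fell by 2.82 and Psmc3ip itself fell by 1.05. Rec8, the meiotic kleisin, went the other way, with 2.67, 2.14 and 0.877 in Kit mutant ovaries and 0.870, 0.146 and 0.232 in wild-type ovaries (change 2.42 ± 0.69, adjusted p = 0.00892). The lowest mutant value of Rec8 was only just above the highest wild-type one, and its call was lost without Kit mutant replicate 1 (adjusted p = 0.0552) or without wild-type replicate 2 (0.0782), and the change was 3.14 without wild-type replicate 1. Genes of early prophase were near the floor in wild-type ovaries already at P0: Stra8 had at most 0.0805, Dmc1 at most 0.120 and Spo11 at most 0.0523 on any of the 6 arrays (another Dmc1 probe set had up to 0.169), whereas their means in wild-type ovaries at E16 were 1.17, 0.718 and 0.422. Of these, Spo11 fell (adjusted p = 0.0425, above 0.05 without 5 of the 6 arrays taken in turn), and Stra8 and Dmc1 were not called.

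Of the oocyte transcription factors 8 of 10 fell (median -4.00). Figla, which drives the zona pellucida genes, had 0.0823, 0.492 and 0.375 in Kit mutant ovaries, against 4.78, 8.89 and 6.57 in wild-type ovaries (change -4.65 ± 0.72, adjusted p = 7.11e-06). Nobox, a homeobox factor required for early folliculogenesis, had 0.129, 0.254 and 0.488 in Kit mutant ovaries and 4.02, 6.51 and 5.09 in wild-type ovaries (change -4.28 ± 0.66). Lhx8, a LIM homeobox factor of oocytes, had 0.0156, 0.351 and 0.523 in Kit mutant ovaries and 6.0, 7.70 and 6.64 in wild-type ovaries (change -5.31 ± 0.85, adjusted p = 1.4e-05). The 2 groups were far apart in all 3 genes, and Kit mutant replicate 1 was the lowest array each time. Without it the changes were -3.90 for Figla and -3.94 for Lhx8, and Lhx8 was at -6.14 without replicate 3. Sohlh1, Sohlh2, Taf4b and Trp63, the last of which guards the oocyte genome, changed by -3.36 to -4.70; without Kit mutant replicate 1 Sohlh2 was at -3.51 and Taf4b at -2.52, and Sohlh2 was at -5.47 without replicate 3. Foxo3, which holds primordial follicles dormant and is also expressed in somatic cells, changed by -0.35 ± 0.11 on its brightest probe set (adjusted p = 0.0173, above 0.05 without Kit mutant replicate 1 or 2 or wild-type replicate 1 or 2) and by -0.66 and -1.02 on its other probe sets (adjusted p = 2.1e-05 and 0.00145); on the brightest one it kept a signal of 6.95 to 7.45 in Kit mutant ovaries, against 8.45 to 9.52 in wild-type ovaries. Obox2 and Obox5 were at most 0.0739 on every array.

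The zona pellucida and secreted factors of the oocyte, made from birth on as oocytes begin to grow, fell in 6 of 8 cases (median -2.67). Gdf9, which acts on granulosa cells, had 0.387, 0.275 and 0.337 in Kit mutant ovaries, against 2.60, 6.70 and 5.04 in wild-type ovaries (change -3.71 ± 0.33, adjusted p = 2.83e-10), with no overlap. Zp2 had 0.236, 0.217 and 0.733 in Kit mutant ovaries and 1.77, 6.64 and 3.96 in wild-type ovaries (change -3.38 ± 0.58). Zp3 was split among the mutant ovaries: it had 0.0201, 0.0220 and 19.2 in Kit mutant ovaries and 0.983, 4.40 and 2.89 in wild-type ovaries. The value of Kit mutant replicate 3 was thus above every wild-type array, while both other mutant ovaries were far below. Its change of -3.14 ± 1.16 (adjusted p = 0.0427) was -6.23 without replicate 3 and -3.76 without wild-type replicate 1, and lost its call without replicate 1 (-1.57, adjusted p = 0.367), without replicate 2 (-1.62, 0.335) or without wild-type replicate 2 or 3 (0.156 and 0.104).

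Replicate 3 was also highest among the mutants for most maternal-effect genes. Of 25 measured genes on that list 18 fell (median -2.58). Dppa3 (Stella) had 1.22, 3.79 and 6.76 in Kit mutant ovaries, against 21.6, 49.0 and 46.3 in wild-type ovaries (change -3.53 ± 0.69, adjusted p = 0.000217; -2.85 without Kit mutant replicate 1). Nlrp5 (Mater), a part of the subcortical maternal complex, had 0.335, 0.539 and 0.488 in Kit mutant ovaries and 2.13, 18.3 and 8.83 in wild-type ovaries (change -3.95 ± 0.62; -4.80 without wild-type replicate 1 and -3.26 without wild-type replicate 2). Ooep, Padi6 and Tle6 of the same complex changed by -2.61, -3.33 and -1.15. Without Kit mutant replicate 3 Ooep and Padi6 were at -3.42 and -4.04, Padi6 was at -4.01 without wild-type replicate 1, and Ooep lost its call without Kit mutant replicate 1 or 2 or wild-type replicate 2 (adjusted p = 0.0709, 0.0688 and 0.088). Ooep had 1.59 in Kit mutant replicate 3, above the 1.46 of wild-type replicate 1. Bcl2l10 was not called (-0.85) and had 2.31 in Kit mutant replicate 3, against 0.113 and 0.0715 in the other mutants and 0.292 to 0.770 in wild-type ovaries. Cpeb1 and Ybx2, which control stored messages, fell without overlap (-3.69 and -3.74).

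Taking the 24 zona and maternal genes that fell, Kit mutant replicate 3 was the highest mutant array for 18 and held a median of 21.2% of the wild-type mean, against 5.72% in replicate 1 and 8.41% in replicate 2. The wild-type ovaries were uneven too: replicate 1 was the lowest for 21 of these 24 genes, at a median of 55.0% of the group mean, and replicate 2 the highest for 22, at 141%. Over the 54 other germ-cell genes that fell, replicate 3 of the mutants held 10.5% and the wild-type arrays were nearer to each other, with medians of 89.9%, 110% and 97.8%.

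**Figure D4:**
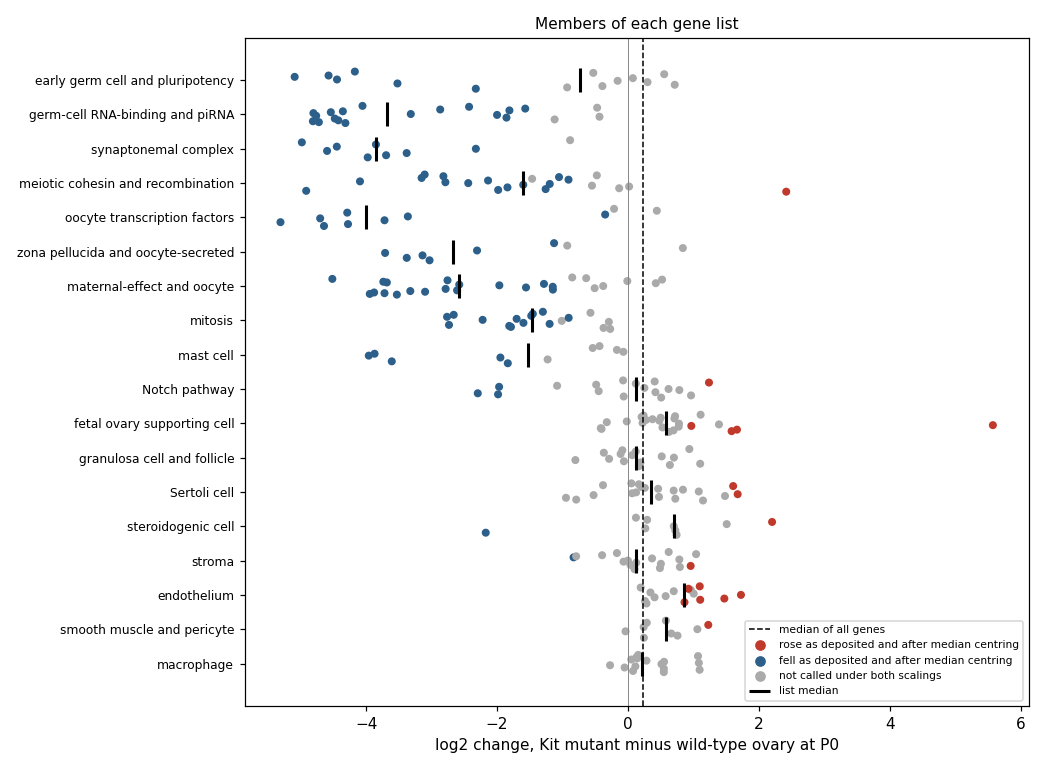
Log2 change of each measured gene between Kit mutant and wild-type ovaries at P0 (horizontal axis) for 18 gene lists (rows); thick bars are list medians and the dashed line is the median of all genes, 0.23. All 7 germ-cell lists, the mitosis list and the mast cell list have medians under 0, while the medians of the granulosa, Notch and stroma lists lie between 0 and the line and those of the supporting cell, Sertoli, steroidogenic, endothelium and smooth muscle lists above it.

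Of 24 measured genes of fetal ovary supporting cells none fell and 4 rose, against 6.21% of all genes: Fst, Wnt4, Kitl and Gng13. Rspo1, Lgr5, Nr5a1 and Wt1 were higher only as deposited. After quantile normalization 7 genes of the list were higher, against 8 as deposited and 4 after centring. The median change of the list was 0.58 as deposited and 0.30 after centring, against 0.23 for all genes as deposited. Fst, an activin antagonist downstream of Foxl2 and Wnt4, had 2.77, 3.13 and 3.34 in Kit mutant ovaries, against 1.08, 0.920 and 0.895 in wild-type ovaries (change 1.67 ± 0.33, adjusted p = 0.000219, 0.00125 after centring). Wnt4, a signal that opposes testis development, had 2.29, 2.06 and 1.85 in Kit mutant ovaries and 0.726, 0.581 and 0.745 in wild-type ovaries (change 1.58 ± 0.28, adjusted p = 5.06e-05, 0.00146 after centring). Both genes were higher in all 3 mutant ovaries, with no overlap. Rspo1, which acts upstream of Wnt4, had 11.0, 7.89 and 8.20 in Kit mutant ovaries and 5.89, 5.64 and 5.05 in wild-type ovaries; it did not overlap either, yet its change of 0.70 missed the threshold after centring (adjusted p = 0.306) or without Kit mutant replicate 1 (0.13) or wild-type replicate 2 or 3 (0.0532 and 0.0783). Foxl2 was not called, although its arrays did not overlap: it had 19.5, 32.6 and 23.4 in the Kit mutant ovaries, which carry 1 intact copy, and 16.8, 14.7 and 16.4 in wild-type ovaries (change 0.63 ± 0.51, adjusted p = 0.376). This SE comes from the spread within all 15 groups, the Foxl2-null groups among them. It is not the spread of these 6 arrays alone, so the missing call does not show that Foxl2 was equal. Irx3, Irx5, Lef1 and Wnt9a had changes of -0.02 to -0.42, and Emx2, Lhx9, Gata4, Runx1, Axin2, Zfpm2 and Cdkn1b of 0.21 to 0.72, none of them called; nor were Bmp2, Nr0b1, Zbtb7c and Sprr2d (0.78, 0.78, 0.24 and 1.11).

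Markers of granulosa cells and growing follicles showed no gene that passed both as deposited and after centring. This depended on the scaling, since 3 genes of the list were higher as deposited and 3 after quantile normalization. Of 15 measured, Inha, Amhr2 and Akr1c14 were higher only as deposited (1.10, 0.64 and 0.94, with adjusted p of 0.118, 0.414 and 0.0501 after centring), and the median change was 0.12, or -0.15 after centring. Amh had 0.726, 0.639 and 0.583 in Kit mutant ovaries and 0.574, 0.427 and 0.776 in wild-type ovaries, Inhbb and Gja1 changed by -0.06 and 0.06, and Fshr, Hsd17b1 and Esr2 were at most 0.214 on each array. The groups overlapped in all 6 of these but Fshr.

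Markers of the testis were measured in the ovaries as well. Of 20 Sertoli cell genes 2 rose, a share near the 6.21% of all genes, and the median change of the list was 0.36, or 0.09 after centring. They were Cldn11, a tight junction protein, with 2.02, 0.939 and 2.34 in Kit mutant ovaries and 0.695, 0.358 and 0.525 in wild-type ovaries (change 1.68 ± 0.32, adjusted p = 0.000147), and Mmd2, with 0.437, 0.458 and 0.495 in Kit mutant ovaries and 0.214, 0.126 and 0.113 in wild-type ovaries (1.61 ± 0.42; 0.71, adjusted p = 0.0878, when its probe sets were averaged). Cldn11 and Mmd2 did not overlap between the groups, and their mean in testes was 1.83 and 4.07. Sox9, the testis determinant, had 0.701, 0.664 and 1.19 in Kit mutant ovaries, against 0.789, 0.216 and 0.283 in wild-type ovaries and a mean of 2.71 in testes; its change of 1.15 was called only as deposited (adjusted p = 0.0169, 0.0826 after centring). Mro and Cst9 were likewise called only as deposited. In all, the summed signal of the list was 13.3 to 17.5 in Kit mutant ovaries and 9.57 to 11.3 in wild-type ovaries. Of 9 steroidogenic genes Cyp11b1 rose (0.152, 0.211 and 0.183 in Kit mutant ovaries, at most 0.0829 in wild-type ovaries) and lost its call without wild-type replicate 2 (1.18, adjusted p = 0.115). Cyp11a1 fell on its brightest probe set (-2.17, with signals of at most 0.0965) but a second probe set was higher by 2.04 ± 0.40, so no direction is given for that gene.

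Endothelial transcripts were higher. Of 15 measured, 6 rose, against 6.21% of all genes, and none fell. The 6 were Cldn5, Cdh5, Ramp2, Tek, Egfl7 and Tie1, which build endothelial junctions or receive vascular signals (list median 0.86, or 0.59 after centring). Cldn5, the tight junction claudin of vessels, had 1.75, 1.82 and 1.83 in Kit mutant ovaries, against 0.362, 0.720 and 0.590 in wild-type ovaries (change 1.73 ± 0.27, adjusted p = 8.66e-06). Cdh5 (VE-cadherin) had 2.08, 2.86 and 2.77 in Kit mutant ovaries and 1.52, 1.3 and 1.37 in wild-type ovaries (change 0.86 ± 0.16, adjusted p = 0.000133, 0.00685 after centring). Neither overlapped, and the summed signal of the list was 19.0 to 21.7 in Kit mutant ovaries against 11.0 to 12 in wild-type ovaries. Pecam1, Kdr, Flt1 and Emcn, also endothelial, had changes of 0.26 to 0.41 and were not called. Rgs5, a marker of pericytes, rose on its brightest probe set (1.23 ± 0.31), but its 3 other probe sets were not called (0.30, 0.46 and 0.14) and neither was the mean of all 4 (0.53, adjusted p = 0.215). Tcf21 rose in the stroma list (0.96 ± 0.21). In the same list Ptch1, the hedgehog receptor and target, fell: it had 2.38, 3.06 and 2.79 in Kit mutant ovaries and 4.42, 6.0 and 4.35 in wild-type ovaries (change -0.83 ± 0.17, adjusted p = 0.000393, but -0.38, adjusted p = 0.227, when its probe sets were averaged). None of 14 surface epithelium and of 16 macrophage genes passed under both scalings.

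Other cells that depend on Kit were represented by the mast cell list. Of 10 measured genes 5 fell (median -1.53), against 13.3% of all genes. They were the chymases Cma1 and Mcpt4, the tryptases Tpsb2 and Tpsab1, and Cpa3, a carboxypeptidase of mast cell granules. Cma1 had 0.158, 0.0862 and 0.106 in Kit mutant ovaries, against 1.08, 1.68 and 3.16 in wild-type ovaries (change -3.87 ± 0.52, adjusted p = 7.66e-07). Tpsab1 had 0.0612, 0.0476 and 0.0449 in Kit mutant ovaries and 0.437, 1.27 and 1.48 in wild-type ovaries (change -3.96 ± 0.71). All mutant arrays were below all wild-type arrays in both. Cpa3 (-1.84, adjusted p = 0.0293) lost its call without Kit mutant replicate 2 or 3 or wild-type replicate 2 or 3. Of 12 genes of melanocytes and Schwann cells, S100b rose (2.53 ± 0.43; 1.88 without wild-type replicate 2) and Pmel, at most 0.0801 on every array, fell (-1.49 ± 0.33).

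Most transcripts of the mitosis list fell. Of 18 measured mitosis genes 13 fell, against 13.3% of all genes, 4 more passed only after centring and none rose (median -1.47). Birc5 (survivin) had 2.05, 2.34 and 2.75 in Kit mutant ovaries, against 8.77, 13.3 and 11.5 in wild-type ovaries (change -2.22 ± 0.15, adjusted p = 1.05e-12). Prc1, which bundles spindle microtubules, had 0.385, 0.566 and 0.440 in Kit mutant ovaries and 2.05, 3.84 and 3.26 in wild-type ovaries (change -2.66 ± 0.19, adjusted p = 2.13e-12). Ttk and Bub1, of the spindle checkpoint, changed by -2.77 and -2.74, and Cdk1 and Ccnb2 by -1.82 and -1.79. The groups were apart in each of these 6. Aurka and Tpx2 lost their calls when their probe sets were averaged (adjusted p = 0.198 and 0.151). Top2a and Mki67, of the same list, changed by only -0.37 and -0.27 as deposited (adjusted p = 0.188 and 0.254) and passed only after centring, and Aurkb (-0.29) was not called. Against wild-type ovaries the list moved in the same direction as the germ-cell lists. Under both scalings 17 of the 18 genes were also lower in Kit mutant ovaries than in Wnt4-/- ovaries (median -1.59, against 8.95% of all genes). The same number were lower than in testes (median -1.68, against 11.0% of all genes). The germ-cell genes had medians of -0.67 and -0.41 in these 2 comparisons. Which cells carried the mitotic transcripts was not tested. In the list of p53 and cell death genes 3 of 15 fell, near the share of all genes: the p53 targets Perp (-3.10 ± 0.38), Mdm2 (-0.81) and Ccng1 (-0.67, but -0.41 and adjusted p = 0.0753 when its probe sets were averaged). Phlda3, another p53 target, was higher only as deposited (0.76, adjusted p = 0.209 after centring).

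The Notch pathway, through which oocytes and pregranulosa cells signal to each other, had 3 falls and 1 rise among 17 genes, shares near the 13.3% and 6.21% of all genes. The ligand Jag1 had 0.336, 0.933 and 0.801 in Kit mutant ovaries, against 1.75, 3.49 and 2.65 in wild-type ovaries (change -1.99 ± 0.33, adjusted p = 2.29e-05), and Jag2 changed by -2.30 ± 0.33. The other Jag2 probe set was not called (-0.24, adjusted p = 0.411), and its groups overlapped. The target Hey1 had 0.683, 1.21 and 1.11 in Kit mutant ovaries and 3.42, 4.43 and 3.73 in wild-type ovaries (change -1.97 ± 0.23, adjusted p = 7.09e-08). On their brightest probe sets these ligands and Hey1 were lower in all 3 mutant ovaries. Mfng, which modifies Notch receptors, rose (1.24 ± 0.22), and Notch3 and Hes1, another target, were higher only as deposited (0.96 and 0.62). In the BMP and TGF-beta list Bambi, a decoy receptor, rose (1.21 ± 0.18) and Id1, a target, fell (-1.04 ± 0.31, above the threshold without Kit mutant replicate 1 or wild-type replicate 1).

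By size, the 12 largest falls among genes with separate arrays and a signal above the median of all probe sets in at least 1 group were Ccnb1ip1 (-5.97), Tex101, Ccdc172, Esrp1, Rpl39l, Pramel13, Lhx8, Rims3, Map7d2, Mbl2, Trim71 and Lin28a (-5.09). Other probe sets of Rims3, Map7d2, Trim71 and Lin28a changed by -2.12, -3.86, -3.85 and -2.30. Ccnb1ip1 (Hei10), needed for meiotic crossovers, had 4.56e-05, 0.000543 and 0.0568 in Kit mutant ovaries and 1.21, 1.42 and 0.989 in wild-type ovaries (-6.87 without Kit mutant replicate 3). Trim71, a stem cell RNA-binding ligase, had 0.0152, 0.353 and 0.466 in Kit mutant ovaries and 4.27, 7.14 and 6.25 in wild-type ovaries (-3.79 without Kit mutant replicate 1 and -5.91 without replicate 3). Esrp1, a splicing regulator of epithelia, had 0.0141, 0.206 and 0.249 in Kit mutant ovaries and 4.35, 6.51 and 5.43 in wild-type ovaries (-4.51 without Kit mutant replicate 1 and -6.22 without replicate 3). No mutant array came within 5-fold of a wild-type one in these genes, and all 12 genes fell in the Foxl2-null background as well. Rspo2, a Wnt agonist singled out after its values were seen, had 0.000128, 0.0782 and 0.0872 in Kit mutant ovaries and 0.795, 1.83 and 1.47 in wild-type ovaries. Its change was -4.87 ± 0.48 (adjusted p = 1.99e-09), and -3.81 without Kit mutant replicate 1. Another Rspo2 probe set, with signals of 0.10 to 0.12, was not called (-0.16, adjusted p = 0.705). Its relative Rspo1 was higher only as deposited.

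The 12 largest rises chosen in the same way were Gng13 (5.58), Minar2, Tbc1d24, Rgcc, Mid1, Tmem174, Svs5, 2610507I01Rik, Prmt8, Svs6, Gtpbp2 and Zdhhc14 (2.67). These sizes are those of the brightest probe sets. Other probe sets of Gtpbp2 changed by 0.32, 0.63 and 0.82 (adjusted p = 0.277, 0.0882 and 0.00879). Those of Mid1 changed by 1.06 and 0.54 and those of Tbc1d24 by 0.50 and 0.39, of which only the 0.50 passed as deposited. The other Rgcc probe set changed by 1.04. Other probe sets of Svs5 changed by 0.99 to 5.13, and those of Zdhhc14 by 0.65 to 2.92. Gng13, a G protein gamma subunit, had 18.4, 9.33 and 9.39 in Kit mutant ovaries, against 0.0623, 0.0755 and 2.39 in wild-type ovaries (change 5.58 ± 0.87, adjusted p = 9.09e-06; 7.22 without wild-type replicate 3, 4.70 without wild-type replicate 1 and 4.82 without wild-type replicate 2), and 5.66, 3.39 and 4.28 in wild-type ovaries at E16. Another Gng13 probe set changed by only 0.89 ± 0.26 (adjusted p = 0.0113). It had 0.567, 0.479 and 0.359 in Kit mutant ovaries and 0.217, 0.179 and 0.374 in wild-type ovaries, so its groups overlapped. Rgcc, a regulator of cell cycle, had 5.22, 2.42 and 3.16 in Kit mutant ovaries and 0.279, 0.170 and 0.334 in wild-type ovaries (change 3.71 ± 0.30, adjusted p = 4.75e-11). Gtpbp2, a GTPase, had 2.20, 2.17 and 1.88 in Kit mutant ovaries and 0.216, 0.243 and 0.438 in wild-type ovaries (change 2.82 ± 0.24), with 1.69, 1.83 and 2.20 in wild-type ovaries at E16. On the brightest probe sets of all 3 the mutant arrays were above every wild-type array of the same age, by the rule that chose them. Svs5 and Svs6, seminal vesicle secretory proteins that lie close together on chromosome 2, changed by 3.39 and 2.94. The calls of Zdhhc14 were lost without Kit mutant replicate 1 (adjusted p = 0.0529) or wild-type replicate 1 (0.0564).

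A Kit contrast with no difference in Foxl2 dose could be drawn from separate arrays in the Foxl2-null background, where KitWv/Wv Foxl2-/- ovaries were set against Foxl2-/- ovaries. There 1087 genes rose (5.98%) and 2346 fell (12.9%), again as deposited and after centring. Of the 2420 genes that fell in Kit mutant against wild-type ovaries 1803 fell there too, 74.5% of that set and 76.9% of the 2346, and 1 rose. Of the 1129 that rose 445 rose there as well, 39.4% of that set and 40.9% of the 1087, and 1 fell. The 2 contrasts share no array. The germ-cell lists had 78 falls and 1 rise (Utf1) in this background (median -2.45), and Dazl had 0.0445, 0.0635 and 0.0931 in KitWv/Wv Foxl2-/- ovaries, against 4.87, 4.22 and 5.45 in Foxl2-/- ovaries. Lhx8 had 0.00357, 0.0888 and 0.0218 in KitWv/Wv Foxl2-/- ovaries and 7.83, 6.32 and 8.02 in Foxl2-/- ovaries. Fst and Wnt4 rose again (1.90 and 1.3), and so did Cldn5, Egfl7 and Ramp2 of the endothelial genes, while Cma1, Mcpt4 and Tpsb2 of the mast cell genes and Jag1, Jag2 and Hey1 fell again. Of the mitosis genes 15 fell there, among them all 13 that fell against wild-type ovaries.

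**Figure D5:**
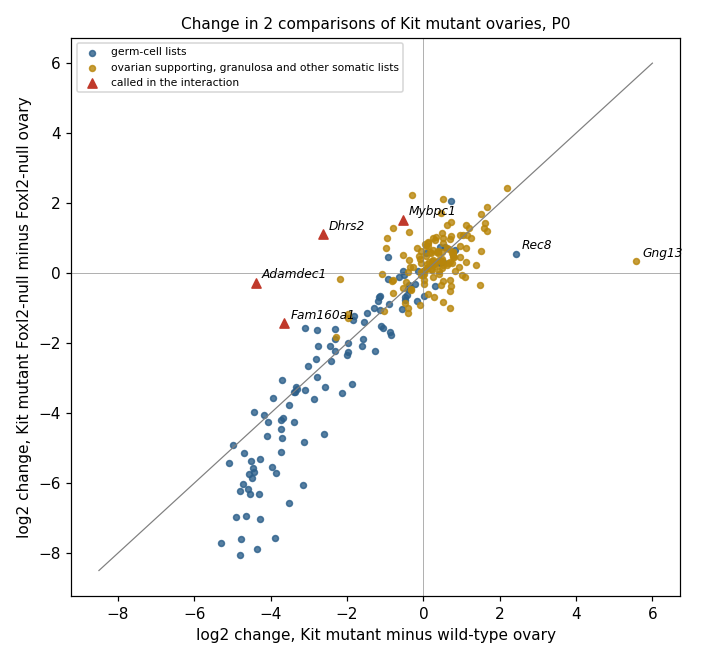
Log2 change at P0 between Kit mutant (Foxl2+/-) and wild-type ovaries (horizontal axis) and between KitWv/Wv Foxl2-/- and Foxl2-/- ovaries (vertical axis) for members of the germ-cell and somatic lists and the 4 genes called in the interaction; the line marks equal changes. Germ-cell genes lie low on both axes, whereas Gng13 changed by 5.58 against wild-type ovaries and by 0.34 in the Foxl2-null background.

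The difference between the 2 contrasts was tested directly; since only the first also differs in Foxl2 dose, a difference between them cannot be assigned to Kit or to Foxl2. Only 4 of 18184 genes (0.0220%) were called in that interaction, with 1127 at an unadjusted p under 0.05. They were Adamdec1, Dhrs2, Fam160a1 and Mybpc1. Adamdec1, a metalloprotease, had 0.153, 0.101 and 0.0639 in Kit mutant ovaries and 2.24, 3.99 and 1.35 in wild-type ovaries, against 0.246, 0.127 and 0.101 in KitWv/Wv Foxl2-/- ovaries and 0.223, 0.158 and 0.168 in Foxl2-/- ovaries. Fam160a1 had 0.303, 0.514 and 0.340 in Kit mutant ovaries and 4.68, 4.43 and 5.34 in wild-type ovaries, against 0.466, 0.377 and 0.252 in KitWv/Wv Foxl2-/- ovaries and 1.07, 0.939 and 0.914 in Foxl2-/- ovaries. In both genes the wild-type ovaries were the highest of the 4 groups. Of the 12 largest rises, 5 (Rgcc, Mid1, Svs5, Prmt8 and Gtpbp2) also rose in the Foxl2-null background; Gng13 changed there by 0.34, with 4.13, 3.97 and 8.20 in KitWv/Wv Foxl2-/- ovaries and 5.92, 4.03 and 2.77 in Foxl2-/- ovaries. The interaction did not pass for Gng13 (-5.24, adjusted p = 0.195) or for Rec8 (-1.86, 0.871), so that a difference between the backgrounds is not shown for them.

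Among the arrays used here, loss of 1 Foxl2 copy by itself could be looked at only at E16. There Foxl2+/- and wild-type ovaries differed in 1 of 18184 genes (0.00550%, 1021 at an unadjusted p under 0.05), B3galt6, with 1.31, 1.16 and 1.27 in Foxl2+/- ovaries and 0.104, 0.118 and 0.0346 in wild-type ovaries. At E16 the genes that fell in the Kit mutant ovaries at P0 had a median change of 0.04 and those that rose one of 0.04, with none of either set called. A count of single genes does not address shifts of gene sets. Such shifts are reported by the paper for Foxl2+/- ovaries: higher testis-determining genes as a group at the E16 stage, and lower somatic follicle markers after birth. No Foxl2+/- ovary with intact Kit and Wnt4 at P0 was among the arrays used here.

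The Wnt4-/- ovaries at P0 matched the Kit mutant ovaries in their Foxl2 genotype. Against them 1627 genes were lower in Kit mutant ovaries (8.95%) and 1108 higher (6.09%) under both scalings. Among the germ-cell genes 41 were lower and 2 (Rec8 and Bcl2l10) higher, and none of these 41 was in the zona list. Dazl had 0.0688, 0.209 and 0.277 in Kit mutant ovaries and 1.03, 1.74 and 1.38 in Wnt4-/- ovaries (difference -3.0, adjusted p = 6.66e-07), and Figla 0.0823, 0.492 and 0.375 in Kit mutant ovaries and 0.839, 1.67 and 1.16 in Wnt4-/- ovaries (-2.18, adjusted p = 0.0264). The Kit mutant arrays were below the Wnt4-/- arrays in both. Gdf9, with 0.387, 0.275 and 0.337 in Kit mutant ovaries and 0.220, 0.739 and 0.182 in Wnt4-/- ovaries, was not called (0.08, adjusted p = 0.883). Of 24 supporting cell genes 11 were higher in Kit mutant ovaries and 1 lower, and Foxl2 had 19.5, 32.6 and 23.4 in Kit mutant ovaries and 5.13, 5.35 and 5.90 in Wnt4-/- ovaries (difference 2.17, adjusted p = 0.00227).

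Testes at P0, which hold germ cells but no oocytes, gave the level of oocyte transcripts in an organ without them. Against testes 2554 genes were higher in Kit mutant ovaries (14.0%) and 2007 lower (11.0%) under both scalings. Of the germ-cell genes 40 were lower and 14 higher in the Kit mutant ovaries; 9 of the 14 were maternal-effect genes, and the rest were Figla, Nobox, Zp2, Gja4 and Rec8. Dppa3 had 1.22, 3.79 and 6.76 in Kit mutant ovaries and 0.122, 0.0874 and 0.165 in testes (difference 4.59, adjusted p = 3.6e-06). Nobox had 0.129, 0.254 and 0.488 in Kit mutant ovaries and 0.0224, 0.0268 and 0.0553 in testes (2.63, adjusted p = 0.00279). So the Kit mutant ovaries, though far below the wild-type ovaries, stood above the testis for these 2 in each array. Ddx4 and Dazl, which male germ cells express as well, were lower in Kit mutant ovaries than in testes (-3.58 and -4.15). The supporting cell genes of the ovary were higher in Kit mutant ovaries than in testes in 18 of 24 cases and lower in none, whereas 15 of 20 Sertoli cell genes were lower and 2 higher.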

How the data were processed

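RNA from whole gonads of single mice was amplified (Pico Ovation) after enzymatic extraction and hybridised to Affymetrix MOE430 v.2 arrays; GCOS 1.3 is named in the submitters' processing notes. The deposited values are linear intensity values that the authors computed with the plier method and scaled to one global mean per array, so equal means but not equal medians were set, and no detection call was used here. The common mean was 15970000. Of 45071 probe sets 64 controls were left out, 34927 of the 45007 tested had 1 gene symbol, and 930 had several and were not named. Intensities plus 1% of the common mean were taken to log2 and fitted with limma 3.58.1 (R 4.3.3): 15 group means over 43 arrays, trended eBayes, 28 residual degrees of freedom, two-sided, Benjamini-Hochberg adjustment over 45007 probe sets. The spread of each contrast is thus that of all groups. The study's own program for calling genes was not used here. Each gene was read from its brightest probe set (mean of the 43 arrays); signals are intensities divided by the common mean. The number of arrays limits the precision. The fit was tested on simulated data.

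The members, gene lists and comparisons were chosen with earlier results of these data known. Named were Kit, Kitl and Foxl2, the 12 largest rises and falls with separate arrays, members of the germ-cell, supporting cell and granulosa lists, up to 6 members of each other list by adjusted p, genes called in the interaction, and some singled out after their values were seen, as stated (Rspo2, B3galt6, and further members of the mitosis, endothelium and Sertoli cell lists). Of the listed genes without a value, nothing is said. Alternatives were pseudocounts of 0.1% and 5%, median centring, quantile normalization, the 6 arrays alone, no trend, a filter at the 25th percentile of signal, the mean of probe sets per gene, a replicate block and leaving out each array.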

Additional observations from a re-analysis of the deposited data

Results flagged for a closer look

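For 4 genes the change between KitWv/Wv Foxl2-/- and Foxl2-/- ovaries differed from that between Kit mutant (Foxl2+/-) and wild-type ovaries by a test of the difference (limma, the first change minus the second). Kit and Foxl2 dose both differ in the second comparison, so the difference cannot be assigned to either. For Adamdec1 the difference was 4.11 ± 0.56 (SE, adjusted p = 0.000484), with changes of -0.28 in the Foxl2-null background and -4.39 against wild-type ovaries; the wild-type ovaries alone were high. For Dhrs2 it was 3.74 ± 0.67 (adjusted p = 0.0222), with 1.11 and -2.63 in the same order; wild-type replicate 1 had 0.174, against 1.67 and 1.92 in the other wild-type ovaries, and the change of -2.63 was -3.73 without that array and -2.03 without wild-type replicate 3. For Fam160a1 it was 2.21 ± 0.35 (adjusted p = 0.00342), with -1.43 and -3.64, and for Mybpc1 2.06 ± 0.35 (adjusted p = 0.0103), with 1.52 and -0.55. Each of these values rests on 3 arrays in each of 4 groups.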

How the results depend on the processing

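The counts of genes depended on the scaling. In the Kit mutant minus wild-type contrast 3147 genes were higher as deposited, 1129 after median centring, 2092 after quantile normalization and 1701 when only the 6 arrays were fitted; 2420 were lower as deposited and 1612 with the 6 arrays only. Leaving out single arrays gave 2000 to 2680 higher and 1768 to 2441 lower genes, the fewest higher ones without Kit mutant replicate 1 (2000) and wild-type replicate 2 (2087). The median change over all probe sets was 0.28 as deposited, 0.0098 after centring, 0.0694 after quantile normalization and 0.24 to 0.30 without single arrays. In the Foxl2-null background 3117 genes were higher as deposited, 1087 after centring and 1918 after quantile normalization, and genes higher in both backgrounds numbered 1739, 445 and 1130. Chosen after seeing the data, centring gave 1108 higher genes in place of 2711 and 2759 lower genes in place of 1627 against Wnt4-/- ovaries. Without single arrays 3 to 6 of the 78 germ-cell genes that fell lost their call. Of 192 named calls, 31 were lost after centring, all of them higher in the mutant, 32 without wild-type replicate 2, 25 without Kit mutant replicate 1, 14 to 18 without each other array and 22 with the 6 arrays only, and with the mean of probe sets 12 were lost and 1 turned round: Cyp11a1, at 0.26 with the mean of its probe sets. Same-numbered arrays did not deviate together (correlations of 0.03, -0.05 and -0.07), which cannot show whether the animals were paired. With a replicate block 3159 genes were higher and 2467 lower. The reduced Foxl2 dose and the 3 arrays per group limit what the contrast can show.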
